A study of Mus musculus with 16 samples.

Results

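The very long protein-coding genes of the mouse, here every autosomal gene of GENCODE release M21 with a gene record of at least 200 kb from start to end, numbered 953 of 20807 (4.58%). They held 40.2% of the summed length of all protein-coding genes, 412 Mb in all, and their median length was 327 kb. Of these genes, 412 were 200 to 300 kb long, 323 were 300 to 500 kb, 218 were longer and 55 exceeded 1000 kb. Membership used only the annotation, and the records on each side of the limit measured 200.031 kb and 199.92 kb. Another protein-coding gene overlapped 185 of them, and since peaks carry no strand, a peak in such a stretch cannot be assigned to 1 of the genes. In 93 genes the principal transcript was shorter than 200 kb. Exons made up 2.32% of these genes, so nearly all of the measured sequence was intron.

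Histone H2B monoubiquitylation (H2Bub1) is a mark of transcribed gene bodies. The RNF20/RNF40 ligase adds it together with the PAF1 complex, which travels with elongating RNA polymerase II (Pol II), and deubiquitylases that carry the adaptor proteins ATXN7L3 and ENY2 remove it. Very long genes take hours to transcribe from end to end, consist mostly of introns, and include many genes for neuronal adhesion, ion channels, the cytoskeleton and transcription factors, as well as the genes at common fragile sites. They allow the extent of the mark to be measured over far greater distances from the transcription start site (TSS) than the average gene does.

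The study profiled H2Bub1 and Pol II by ChIP-seq in wild-type (WT, Atxn7l3+/+) and Atxn7l3-/- (KO) cells of mixed DBA/2 x C57BL/6 background, without further treatment. Mouse embryonic stem cells (mESCs) were grown with LIF and the inhibitors PD0325901 and CHIR99021. Mouse embryonic fibroblasts (MEFs) came from E10.5 embryos without head and gut, 1 embryo per culture. The Atxn7l3 null allele was made by recombining a knockout-consortium targeting construct in the germ line and is thus carried by every cell of the embryo, and both genotypes came from crosses of heterozygous mice. H2Bub1 was precipitated with an antibody from MediMabs and Pol II with an antibody to RPB1, its largest subunit. Each of the 8 lists of peaks came from 1 library, so no test between genotypes exists: all values below compare libraries, and the difference between genotypes cannot be told apart from that between the cultures or embryos. Exact Clopper-Pearson 95% intervals are given for shares and cover counting error only.

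The H2Bub1 lists held 40979 (WT) and 48952 (KO) peaks in mESCs, and 19725 (WT) and 28856 (KO) in MEFs. The Pol II lists held 17074 (WT) and 11963 (KO) peaks in mESCs, and 45870 (WT) and 32232 (KO) in MEFs, so the KO lists held 0.701 and 0.703 times as many Pol II peaks as the WT lists in mESCs and MEFs. Read depth is unknown from peak lists. Of 6 pluripotency markers, 5 had a Pol II promoter peak in both mESC libraries, 1 in WT MEFs and 2 in KO MEFs. All 6 fibroblast markers had one in both MEF libraries and none in either mESC library.

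The promoters of 5 genes on which the results turn are shown from 250 bases before to 50 bases after the TSS (RefSeq GRCm38.p6, the mm10 build; 5′ to 3′ on the gene's strand; CG dinucleotides in capitals). Lpp (chr16:24393257-24393556, plus strand) held the longest H2Bub1 run in KO MEFs, Gli2 (chr1:119053570-119053869, minus strand) held the longest in both mESC libraries, and Med13l (chr5:118560429-118560728, plus strand) was covered over most of its length in all 4 libraries. Tmem108 (chr9:103761788-103762087, minus strand) had Pol II and H2Bub1 in KO MEFs and neither in WT MEFs. Dlg2 (chr7:90476422-90476721, plus strand) had a strong Pol II promoter peak in both MEF libraries and no H2Bub1.
Lpp: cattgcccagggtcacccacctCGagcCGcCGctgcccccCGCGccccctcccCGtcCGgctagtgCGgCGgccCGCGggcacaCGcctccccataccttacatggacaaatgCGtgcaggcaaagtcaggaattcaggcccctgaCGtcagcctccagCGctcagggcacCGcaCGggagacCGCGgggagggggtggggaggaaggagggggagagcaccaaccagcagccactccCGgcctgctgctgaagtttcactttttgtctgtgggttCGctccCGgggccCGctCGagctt
Gli2: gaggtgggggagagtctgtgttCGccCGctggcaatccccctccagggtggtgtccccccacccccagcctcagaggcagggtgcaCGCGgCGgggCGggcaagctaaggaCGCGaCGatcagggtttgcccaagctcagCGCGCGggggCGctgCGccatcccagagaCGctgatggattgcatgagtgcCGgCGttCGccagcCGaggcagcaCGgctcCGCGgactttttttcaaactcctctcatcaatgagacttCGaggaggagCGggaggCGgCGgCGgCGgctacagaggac
Med13l: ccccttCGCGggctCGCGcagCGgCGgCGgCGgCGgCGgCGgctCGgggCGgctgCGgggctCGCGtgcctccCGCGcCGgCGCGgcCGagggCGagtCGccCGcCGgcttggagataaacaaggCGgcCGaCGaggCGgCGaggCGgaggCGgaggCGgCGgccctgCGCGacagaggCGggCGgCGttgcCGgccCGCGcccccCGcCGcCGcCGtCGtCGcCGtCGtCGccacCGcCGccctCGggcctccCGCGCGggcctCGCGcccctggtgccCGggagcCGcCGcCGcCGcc
Tmem108: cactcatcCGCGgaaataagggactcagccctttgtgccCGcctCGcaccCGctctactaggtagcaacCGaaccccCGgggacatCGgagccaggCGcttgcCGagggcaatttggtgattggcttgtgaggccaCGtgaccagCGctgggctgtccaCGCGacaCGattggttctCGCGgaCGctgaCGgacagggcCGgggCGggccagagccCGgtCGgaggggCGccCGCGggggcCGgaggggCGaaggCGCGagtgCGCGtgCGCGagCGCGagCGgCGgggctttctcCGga
Dlg2: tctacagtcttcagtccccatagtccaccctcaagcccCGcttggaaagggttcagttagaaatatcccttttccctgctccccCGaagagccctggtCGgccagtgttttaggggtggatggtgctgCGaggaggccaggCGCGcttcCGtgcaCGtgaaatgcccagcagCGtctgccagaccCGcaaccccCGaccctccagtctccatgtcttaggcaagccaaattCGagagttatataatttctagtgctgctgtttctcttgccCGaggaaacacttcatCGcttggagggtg

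These 300-base windows held 24 CG in Lpp, 28 in Gli2, 65 in Med13l, 39 in Tmem108 and 14 in Dlg2. The median was 18 over the 953 long genes and 12 over all 20807 genes. The ratio of observed to expected CG reached 0.6 in 58.9% of the long genes and in 45.5% of all genes. It reached that value in 85.6% of the 181 long genes whose promoter held Pol II in all 4 libraries, and in 34.9% of the 384 without one in any. Among the 103 genes with an H2Bub1 run of 100 kb or more in KO MEFs the share was 87.4%. Of the 29 genes that had Pol II at the promoter in WT and KO MEFs but no H2Bub1 in KO MEFs, 82.8% reached it as well. The share was lower, at 67.3%, in the 156 genes with Pol II in both MEF libraries only, and at 53.8% in the 93 that lost it in KO MEFs. No intervals were computed for these shares, and whether the 50 of 93 genes that lost Pol II differ from the 58.9% of all long genes was not tested. The 24 of 29 genes that kept Pol II without H2Bub1 lay close to the 85.6% of genes with Pol II in all 4 libraries. The CG dinucleotide reads the same on both strands.

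In mESCs, H2Bub1 lay in 488 of the long genes in WT (51.2%, 48.0 to 54.4) and in 564 in KO (59.2%, 56.0 to 62.3). In MEFs, it lay in 338 in WT (35.5%, 32.4 to 38.6) and in 522 in KO (54.8%, 51.6 to 58.0). Over all protein-coding genes the shares were 55.7% (WT) and 62.1% (KO) in mESCs, and 31.7% (WT) and 54.3% (KO) in MEFs, so the long genes lay within 5 percentage points of all genes in each library. The length covered differed far more than the number. The covered length in mESCs came to 5.91 Mb in WT against 16.1 Mb in KO, 2.72 times as much. In MEFs the corresponding lengths were 5.93 Mb and 44.7 Mb, a ratio of 7.52. Keeping only peaks with a −log10 q of 3 or more raised these ratios to 4.35 and 96.2, as the WT lists lost more of their length. In the lists as deposited, the WT libraries covered nearly equal lengths, 1.44% of the gene bodies each, whereas KO covered 3.91% in mESCs and 10.8% in MEFs. The WT libraries were not as close with the stricter limit. H2Bub1 then lay in 18.2% of the long genes in WT mESCs and 6.40% in WT MEFs, and covered 0.266% and 0.0542% from 50 to 100 kb. Long genes held 8.57% (WT) and 11.6% (KO) of all covered gene bases in mESCs, and 12.1% (WT) and 20.3% (KO) in MEFs.

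The marked pieces were longer in KO. The median unbroken piece measured 857 bp (WT) and 1160 bp (KO) in mESCs, and 1184 bp (WT) and 1946 bp (KO) in MEFs. The longest was 48.7 kb in WT mESCs and 161 kb in KO mESCs, 40.4 kb in WT MEFs and 244 kb in KO MEFs. At least 100 kb of H2Bub1 lay in 9, 42, 7 and 173 genes in WT mESCs, KO mESCs, WT MEFs and KO MEFs. At least 50% of the gene was covered in 5, 18, 3 and 101.

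Of the 953 genes, 116 were marked in KO only and 40 in WT only in mESCs (12.2% and 4.20%, against 9.53% and 3.13% of all genes). In MEFs 201 were marked in KO only and 17 in WT only (21.1% and 1.78%, against 22.9% and 0.293% of all genes). Among genes marked in both genotypes, the covered length was at least 2 times higher in KO in 317 of 448 in mESCs (70.8%, against 47.1% of all genes) and in 295 of 321 in MEFs (91.9%, against 75.3%). It was at least 2 times lower in 11 in mESCs (2.46%, against 2.71%) and in 1 in MEFs (0.312%, against 0.184%). In genes marked in both, the median covered share went from 0.875% in WT to 3.63% in KO in mESCs, and from 2.13% to 30.7% in MEFs. The shares over all genes are given as background, and longer genes leave more room for such a difference.

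How far H2Bub1 ran into a gene was measured as the H2Bub1 run, which starts with a peak within 10 kb of the TSS and continues over peaks less than 5 kb apart, so a run can hold unmarked gaps. In mESCs, 336 genes had a run in WT and 415 in KO, with medians of 2.56 kb and 6.94 kb. In MEFs, 171 genes had a run in WT and 430 in KO, with medians of 9.12 kb and 31.2 kb. The TSS of the record was the start of a protein-coding transcript in 737 of the 953 genes. From the annotated start with the highest Pol II fold instead, 364 (WT) and 439 (KO) genes had a run in mESCs, and 209 (WT) and 488 (KO) in MEFs. Runs of 100 kb or more then numbered 6 (WT) and 30 (KO) in mESCs, and 5 (WT) and 115 (KO) in MEFs. Genes with a run in both genotypes allow the same genes to be compared. For these 305 genes in mESCs the median was 2.99 kb in WT (95% interval 2.30 to 3.74) and 9.52 kb in KO (7.93 to 11.9). For the 168 such genes in MEFs it was 9.32 kb in WT (7.89 to 10.9) and 77.2 kb in KO (61.1 to 99.2). When peaks up to 20 kb apart were joined, these medians became 4.99 and 34.3 kb in mESCs and 27.6 and 150.1 kb in MEFs. With a limit of 1 kb the KO median in MEFs was 40.6 kb. Of genes with a run in either genotype, the KO run was the longer in 371 of 446 in mESCs (83.2%, 79.4 to 86.5, against 69.6% of all genes). In MEFs it was longer in 428 of 433 (98.8%, 97.3 to 99.6, against 95.3% of all genes).

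**Figure D1:**
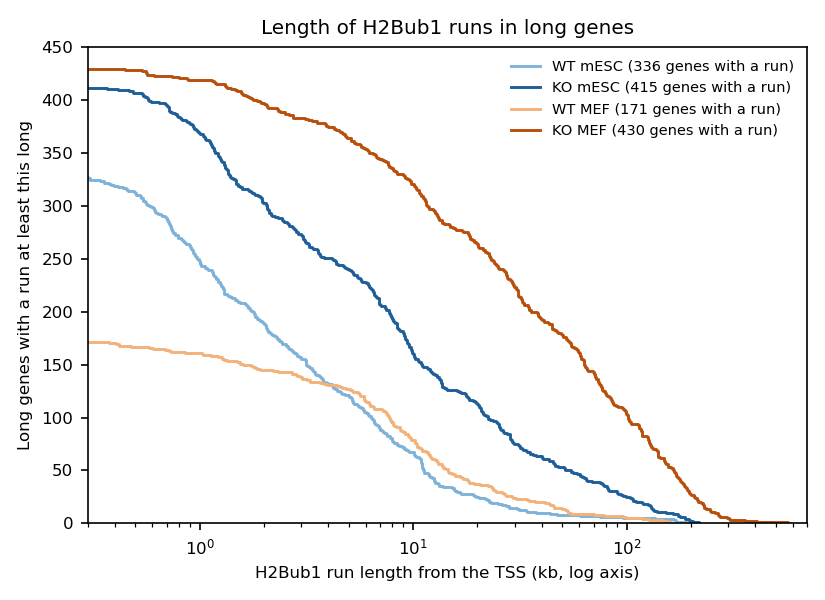
Number of long genes (vertical axis) with an H2Bub1 run at least as long as the value on the horizontal axis (kb, log axis), 1 line per library. KO MEFs have 103 runs of 100 kb or more and KO mESCs have 25, against 5 in each WT library.

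Runs of 20 kb or more numbered 25 (WT) and 113 (KO) in mESCs, and 37 (WT) and 264 (KO) in MEFs. Runs of 50 kb or more numbered 8, 53, 14 and 178 in the same order, and runs of 100 kb or more 5, 25, 5 and 103. A run of 200 kb or more was seen in 1 gene in WT mESCs, 2 in KO mESCs, none in WT MEFs and 28 in KO MEFs. Even in KO MEFs, however, only 7 genes carried a run into the last 10 kb of the gene, against 2 in KO mESCs and none in either WT library. Of the 25 genes with a KO run of 100 kb or more in mESCs, 18 also had one in KO MEFs, which is 72.0% of the mESC genes and 17.5% of the 103 MEF genes. Of the 85 that reached 100 kb in KO MEFs alone, 29 lacked a Pol II promoter peak in both mESC libraries.

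Several genes named by fixed rules show what these runs looked like. Gli2, which encodes a transcription factor of the Hedgehog pathway, carried H2Bub1 along most of its length in mESCs of either genotype. Its run measured 203 kb in WT mESCs and 219 kb in KO mESCs, no run was found in WT MEFs, and it measured 50.2 kb in KO MEFs. Its covered length of KO minus WT was 2.34 kb in mESCs and 62.5 kb in MEFs. These became 16.6 and 15.3 kb without peaks of a −log10 q below 3. Med13l, which encodes a subunit of the Mediator kinase module, was the gene with the longest run in WT MEFs. Its run measured 171 kb (WT) and 187 kb (KO) in mESCs, and 161 kb (WT) and 164 kb (KO) in MEFs. The shortest run of Cmip measured 154 kb, in WT MEFs, and the longest 189 kb, in KO mESCs. In the lists as deposited, Med13l and Cmip were thus covered over most of the gene in WT too. This depended on weak peaks, those with a −log10 q below 3. With these left out, the covered length of KO minus WT went from 39.7 to 140.1 kb in Med13l and from 28.4 to 110.7 kb in Cmip in mESCs, and from 30.9 to 138.8 kb and from 38.0 to 155.1 kb in MEFs.

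Other genes carried a long run in KO only, or in 1 cell type only. Sh3pxd2a, which encodes the podosome scaffold TKS5, had a run of 6.86 kb in WT mESCs and of 204 kb, reaching the gene end, in KO mESCs, while its Pol II promoter peak of 3.86-fold in WT was not called in KO. In MEFs its runs were 0 kb in WT and 26.5 kb in KO. The long KO run in mESCs rested on weak peaks, as the covered length of KO minus WT fell from 118 to 14.2 kb without those of a −log10 q below 3. Rere, which encodes an atrophin-family corepressor, had runs of 34.3 kb (WT) and 197 kb (KO) in mESCs, and 54.9 kb (WT) and 197 kb (KO) in MEFs. Its difference in mESCs likewise went from 124.97 to 35.7 kb. Tead1, a transcription factor of the Hippo pathway, stood at 171 kb (WT) and 199 kb (KO) in mESCs, and 1.54 kb (WT) and 196 kb (KO) in MEFs. In the WT MEF library Tead1 still had 59.3 kb of H2Bub1, most of it beyond its short run. Without the weak peaks its difference in mESCs went from 35.2 to 64.2 kb.

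The longest run of all lay in Lpp (chr16:24393507-24992578), which encodes a LIM protein of focal adhesions. It measured 572 kb of the 599-kb gene in KO MEFs, 11.5 kb in WT MEFs and 6.54 kb in KO mESCs, and there was none in WT mESCs. The next longest in KO MEFs were Atxn1, which encodes the nuclear repressor ataxin-1 (407 kb, WT MEFs 11.9 kb), Foxp1, a forkhead transcription factor (358 kb, WT MEFs 1.03 kb), Magi1, a scaffold of cell junctions (306 kb, WT MEFs 10.2 kb) and Msi2, an RNA-binding protein (303 kb, none in WT MEFs). In Zfand3 the run reached the gene end in KO MEFs, at 206 kb, and already measured 149 kb in WT MEFs. Of these genes, only Magi1 and Zfand3 moved by more than 1.5 times in MEFs without the weak peaks, where KO minus WT went from 353 to 227 kb and from 67.1 to 149.9 kb. All of these genes carried a Pol II promoter peak in both MEF libraries.

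**Figure D2:**
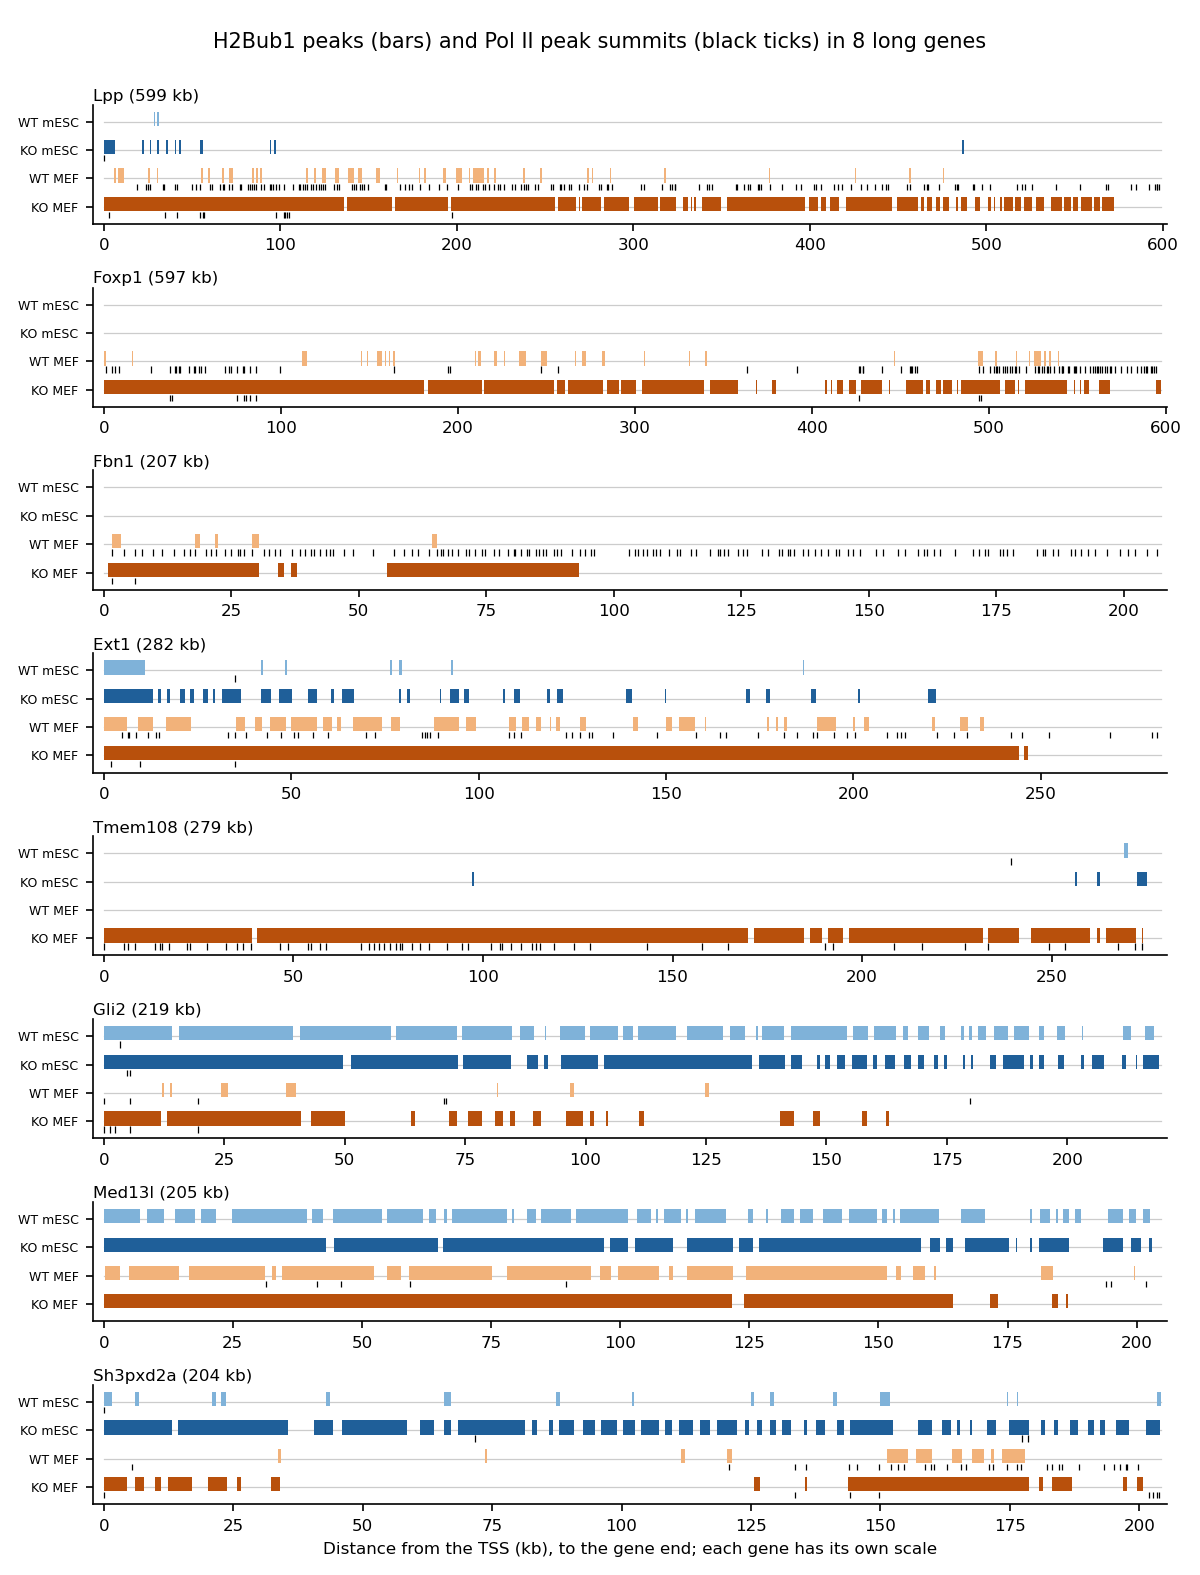
H2Bub1 peaks (coloured bars) and Pol II peak summits (black ticks) in 8 long genes in each of the 4 libraries, by distance from the TSS (kb) to the gene end. In Lpp, Foxp1 and Ext1 the KO MEF library has nearly continuous H2Bub1 and few Pol II summits where the WT MEF library has scattered H2Bub1 and many, in MEFs Tmem108 has both marks in KO only, and Gli2 and Med13l are covered in WT mESCs too.

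Distance from the TSS was then examined in genes whose promoter held Pol II in both genotypes, 200 in mESCs and 425 in MEFs. In mESCs the mark was sharp at the start. It covered 35.8% of the first 5 kb in WT and 61.6% in KO, 7.89% and 24.9% from 20 to 50 kb, and 2.93% and 7.83% from 150 to 200 kb. In MEFs it was low in WT and high in KO. In KO it fell from each distance range to the next, whereas in WT it rose slightly to 12.3% from 5 to 10 kb before falling. It covered 11.9% of the first 5 kb in WT and 79.3% in KO, 7.84% and 48.6% from 20 to 50 kb, and 2.11% and 20.01% from 150 to 200 kb. The ratio of KO to WT was 1.72 over the first 5 kb in mESCs and 3.16 from 20 to 50 kb. In MEFs it was 6.67 over the first 5 kb, 5.56 from 5 to 10 kb and 9.50 from 150 to 200 kb, the highest of the 7 distance ranges. In the last 50 kb of the gene the covered share was 3.00% and 5.45% in WT and KO mESCs, and 1.16% and 8.50% in WT and KO MEFs.

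**Figure D3:**
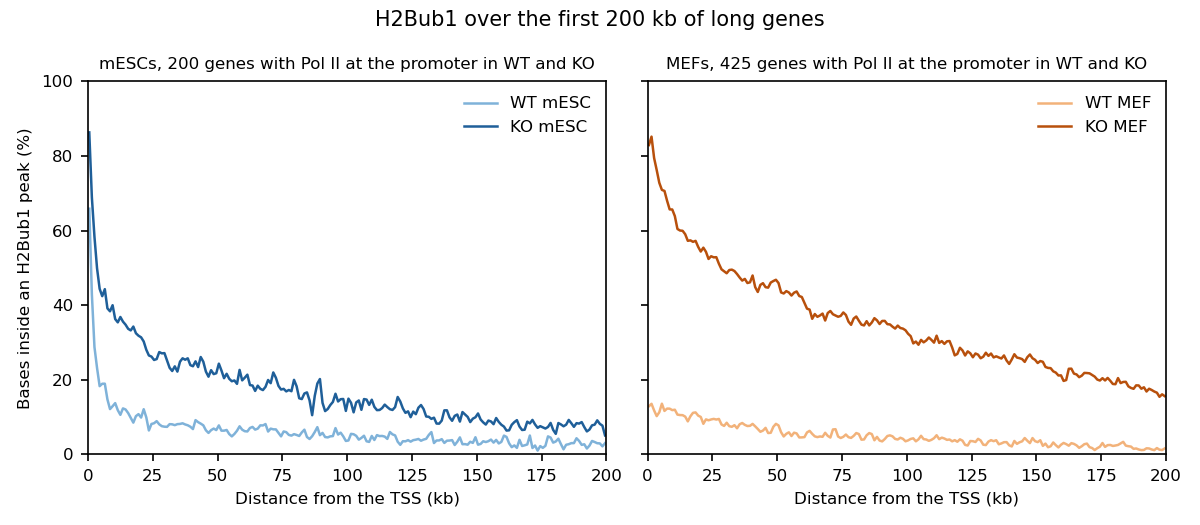
Share of bases inside an H2Bub1 peak (vertical axis, %) in 1-kb steps over the first 200 kb from the TSS, for long genes whose promoter held Pol II in both genotypes (200 in mESCs, 425 in MEFs). The highest step is 65.9% (WT) and 86.3% (KO) in mESCs, and 13.5% (WT) and 85.2% (KO) in MEFs, and the KO line lies above the WT line throughout.

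The covered share fell below 50% of its highest 1-kb value at 2 kb from the TSS in WT mESCs, 5 kb in KO mESCs, 42 kb in WT MEFs and 55 kb in KO MEFs. Relative to its own highest value, the covered share thus fell off more slowly in MEFs than in mESCs in both genotypes, over 425 and 200 genes. In WT MEFs the highest value was only 13.5%, at 5 to 6 kb from the TSS. WT MEFs were covered less than WT mESCs in every distance range. The shares were 7.84% against 7.89% from 20 to 50 kb, and 2.11% against 2.93% from 150 to 200 kb. The height of the marked bases was lower from 150 to 200 kb than in the first 5 kb in all 4 libraries, over a range that the peak caller's limit bounds from below. The mean fold enrichment of covered bases over all long genes was 3.19 (WT) and 3.4 (KO) in the first 5 kb in mESCs, and 2.80 (WT) and 2.68 (KO) from 150 to 200 kb. In MEFs it was 3.19 (WT) and 3.35 (KO) in the first 5 kb, and 3.11 (WT) and 2.80 (KO) from 150 to 200 kb.

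Gene structure gives a second scale. In these genes the first intron ended at a median of 44.5 kb in mESCs and 43.9 kb in MEFs. The run ended inside intron 1 in 84.6% (WT) and 66.7% (KO) of genes with a run in mESCs, and 73.7% (WT) and 47.5% (KO) in MEFs. It passed the start of exon 2 in 13.1% (WT) and 32.3% (KO) in mESCs, and 24.4% (WT) and 52.0% (KO) in MEFs. In KO MEFs, Lpp contained 10 of its 13 exon starts within its run, and Magi1, whose first intron ends 341 kb from the TSS, contained 1 of 25 although its run measured 306 kb. Exons made up 6.43% of the covered bases in WT mESCs and 3.67% in KO mESCs, above their 2.32% of the genes, and 1.87% and 1.92% in WT and KO MEFs.

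At matched distance the long genes were less covered near the start than shorter genes. In genes of 100 to 200 kb with Pol II in both genotypes, the first 5 kb were covered at 39.7% (WT) and 71.6% (KO) in mESCs, and 20.6% (WT) and 85.6% (KO) in MEFs, each above the value in the long genes. From 20 to 50 kb the genes of 100 to 200 kb stood at 8.36% (WT) and 28.0% (KO) in mESCs. In MEFs they stood at 11.2% (WT) and 54.4% (KO), and all of these values lay above the long genes. Genes of 50 to 100 kb did so from 20 to 50 kb in both WT libraries only. In KO they lay below the long genes, at 22.6% against 24.9% in mESCs and 41.6% against 48.6% in MEFs. From 50 to 100 kb the genes of 100 to 200 kb stood at 6.10%, 15.7%, 4.63% and 32.6%. The long genes stood at 5.89%, 17.6%, 4.90% and 37.6%, which is below them in WT mESCs and above them in the other 3 libraries. The long genes with Pol II in both MEF libraries were also split by length, with a gene without a run counted as 0 kb. The median KO run in MEFs was 37.9 kb (30.7 to 54.8) in 233 genes of 200 to 300 kb, 20.1 kb (13.1 to 27.7) in 137 of 300 to 500 kb and 24.3 kb (4.89 to 52.2) in 55 longer ones. As a share of the gene it was 16.0%, 5.32% and 2.31%.

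Pol II promoter peaks, within 1 kb of the TSS, lay at 261 long genes (27.4%) in WT and 258 (27.1%) in KO mESCs, and the share over all genes was 35.3% (WT) and 32.1% (KO). In MEFs they lay at 518 long genes (54.4%) in WT and 442 (46.4%) in KO, against 55.3% (WT) and 52.3% (KO) of all genes. In mESCs 200 genes had the peak in both genotypes, 61 only in WT and 58 only in KO. In MEFs 425 had it in both, 93 only in WT and 17 only in KO. Of the promoter peaks present in WT, 23.4% (18.4 to 29.0) were not called in KO mESCs, against 22.8% of all genes, and 17.95% (14.7 to 21.5) were not called in KO MEFs, against 8.01% of all genes. New promoter peaks appeared in 8.38% of the remaining genes in mESCs and 3.91% in MEFs, against 7.49% and 3.37% of all genes.

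In MEFs, long genes had weaker Pol II promoter peaks in WT than other genes, with a median of 11.0-fold against 13.4-fold, and weak peaks were lost most often. The loss was therefore compared within 3 classes of equal size, made over all genes by WT fold. In the weakest class, 84 of 234 long genes lost the peak (35.9%, 29.8 to 42.4), against 21.0% (19.7 to 22.4) of the other genes. The class did not even out the strength, as the median WT fold within it was 6.10 in the long genes and 6.76 in the others. In the middle class the shares were 3.66% (1.35 to 7.79) and 1.44% (1.08 to 1.89), and in the strongest 2.50% (0.519 to 7.13) and 0.485% (0.288 to 0.765). Over all classes in mESCs long genes lost 23.4% and other genes 22.8%. The weakest class there lost 34.3% (25.1 to 44.6) in long genes and 41.8% in other genes, the middle 22.9% and 23.6%, and the strongest 5.26% (1.10 to 14.6) and 3.69%. The intervals of long genes and other genes thus did not overlap in the weakest class in MEFs, and the order of the 2 differed between classes in mESCs. Whether the cell types differ in this was not tested. Long genes of at least 300 kb lost 23.5% in MEFs.

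H2Bub1 was more frequent in long genes with a promoter peak than in those without. Of the long genes whose promoter held Pol II, 88.1% (83.6 to 91.8) had H2Bub1 in WT and 96.9% (94.0 to 98.7) in KO mESCs, and the shares over all such genes were 91.9% and 97.8%. In MEFs 52.9% (48.5 to 57.3) had it in WT and 92.8% (89.9 to 95.0) in KO, and the shares over all such genes were 53.4% and 93.3%. Among long genes without the peak, H2Bub1 lay in 37.3% (WT) and 45.2% (KO) in mESCs, and 14.7% (WT) and 21.9% (KO) in MEFs. The shares over all such genes were 36% and 45.2% in mESCs, close to the long genes, and 4.81% and 11.3% in MEFs, below them, and longer genes leave more room for a peak. Some long genes without the peak had Pol II at another annotated start. Where no annotated start had Pol II, 210 of 642 genes held H2Bub1 in WT mESCs, 271 of 650 in KO mESCs, 17 of 348 in WT MEFs and 39 of 432 in KO MEFs. H2Bub1 without any called Pol II start was therefore frequent in the mESC lists and rare in the MEF lists, and the mESC Pol II lists were also the shorter ones.

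In MEFs, 395 of the 425 genes with Pol II in both genotypes were covered more in KO and 3 were covered less, with 5.08 Mb in WT and 37.5 Mb in KO. In mESCs 192 of the 200 were covered more and 7 less, with 3.85 Mb and 9.32 Mb. Of the 17 genes whose promoter held Pol II in KO MEFs only, 14 gained covered bases. Of the 93 with the peak in WT MEFs only, 19 were covered more in KO and 9 less. KO runs were also set against the strength of the WT Pol II peak, with a gene without a run counted as 0 kb. In 3 classes from the weakest to the strongest peak, the median KO run was 15.6 kb (9.78 to 24.5), 30.6 kb (21.2 to 43.0) and 59.2 kb (39.2 to 80.3) in MEFs, and 10.4, 7.68 and 9.57 kb in mESCs, where all intervals overlapped. In MEFs those of the weakest and the strongest class did not.

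A set of 181 long genes had Pol II promoter peaks in all 4 libraries and allows the cell types to be set side by side in the same genes. Their median run was 2.93 kb in WT mESCs (1.85 to 4.40), 9.35 kb in KO mESCs (6.94 to 13.5), 0 kb in WT MEFs (0 to 1.82) and 38.6 kb in KO MEFs (29.0 to 60.5). In WT the run was longer in mESCs in 104 genes and in MEFs in 58. In KO it was longer in MEFs in 139 and in mESCs in 38. The order of the cell types thus turned between WT and KO, although the covered length in WT was equal, at 3.59 Mb in each.

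Pol II peaks inside the gene bodies, with a summit over 1 kb downstream of the TSS, numbered 572 (WT) and 331 (KO) in mESCs, and 3749 (WT) and 2118 (KO) in MEFs. The KO lists thus held 0.579 and 0.565 times as many in mESCs and MEFs, where for the bodies of all genes the ratios were 0.541 and 0.660. With lists limited to equal numbers of peaks the ratios for long genes were 0.914 and 0.952, so these ratios moved with the length of the lists. Single genes in MEFs differed by far more. The number of body peaks was lower by at least 10 in 55 genes in KO MEFs and higher by at least 10 in 20. With equal numbers of peaks these counts were 18 and 28.

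Lpp and Fbn1 had the most body peaks in WT MEFs besides Gm20388, and nearly all of them were gone in KO MEFs. Lpp had 165 body peaks in WT MEFs and 12 in KO MEFs. Fbn1 (chr2:125300594-125507993), which encodes fibrillin-1 of the extracellular microfibrils, had 143 and 2, and its promoter peak was 39.2-fold in WT and 16.3-fold in KO. Foxp1 had 103 and 10. When the lists were cut to equal length, 60 and 12 were left for Lpp, 89 and 2 for Fbn1, and 50 and 10 for Foxp1. Ext1, which encodes a glycosyltransferase that builds heparan sulfate, had 57 and 3. Fndc3b with 97 and 6, Runx1 with 61 and 4, and Zmiz1 with 67 and 11 were picked out after their values had been seen. In lists of equal length Ext1 had 22 and 3, Fndc3b 31 and 6, Runx1 50 and 4, and Zmiz1 27 and 11. All of these genes had more H2Bub1 in KO. Lpp was covered over 54.8 kb in WT MEFs and 486 kb in KO MEFs, Fbn1 over 5.64 kb and 69.6 kb, Foxp1 over 42.1 kb and 451 kb, and Ext1 over 84.2 kb and 245 kb. Without the weak peaks KO minus WT went from 64.0 to 30.8 kb in Fbn1 and from 160.9 to 244.1 kb in Ext1.

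Other genes gained Pol II peaks in KO MEFs. Tmem108 (chr9:103482947-103761837), which encodes a transmembrane protein, had no promoter peak, no body peak and no H2Bub1 in WT MEFs, and in KO MEFs a 12.4-fold promoter peak, 60 body peaks and a run of 274 kb. Plxna4, which encodes a semaphorin receptor, had 2 body peaks and no H2Bub1 in WT MEFs, and 17 body peaks and a run of 296 kb in KO MEFs. Chosen after their values were seen, Bicc1, which encodes an RNA-binding protein, had 4 and 106 body peaks in WT and KO MEFs, Sema3d, a secreted semaphorin, 0 and 55, and Mylk, the myosin light chain kinase, 7 and 49. Their H2Bub1 covered 11.6 and 189 kb, 0 and 74.1 kb, and 0 and 89.5 kb.

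**Figure D4:**
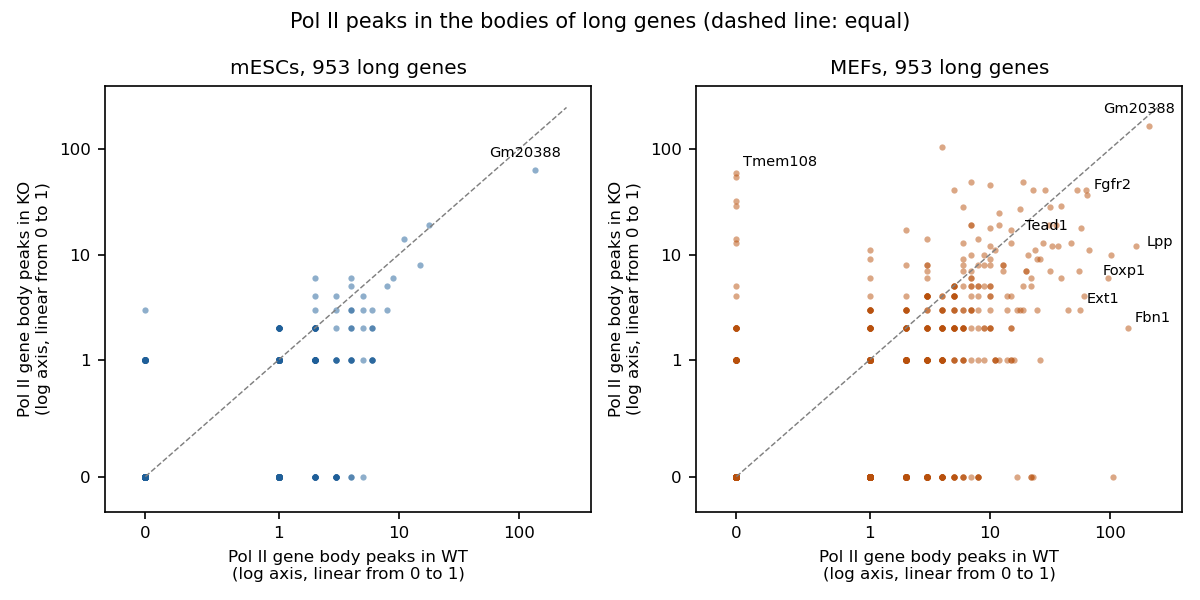
Number of Pol II gene body peaks in WT (horizontal axis) and KO (vertical axis) for each of the 953 long genes, in mESCs and MEFs (log axes, linear from 0 to 1; the dashed line marks equal numbers). In MEFs Lpp lies at 165 and 12, Fbn1 at 143 and 2 and Tmem108 at 0 and 60.

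H2Bub1 was higher in KO on both sides. Of the 55 genes with at least 10 fewer body peaks in KO MEFs, 54 were covered more by H2Bub1 in KO, with 2.03 Mb in WT and 8.52 Mb in KO. Of the 20 genes with at least 10 more, all 20 were covered more, with 0.226 Mb and 3.09 Mb. The median covered share was 5.77% and 28.0% in WT and KO for the former, and 0% and 41.3% for the latter. With equal numbers of peaks, 17 of 18 genes with at least 10 fewer were covered more in KO, with 0.760 Mb in WT and 2.87 Mb in KO. Of the 28 with at least 10 more, 27 were covered more, with 0.908 and 5.46 Mb and median shares of 1.79% and 48.6%. Over all long genes in MEFs, 519 were covered more in KO and 20 less. The counts in genes with fewer and with more Pol II body peaks thus lay close to those over all long genes and set neither group apart. In WT MEFs 11.4% of the body peaks of long genes lay inside an H2Bub1 peak, and in KO MEFs 72.5% did. In WT and KO mESCs the shares were 44.8% and 68.9%. The area inside grew as well, from 1.43% to 10.8% of the gene bodies in MEFs and from 1.39% to 3.84% in mESCs. Per 100 kb inside H2Bub1 the number of body peaks was lower in KO, with 7.28 (WT) and 3.47 (KO) in MEFs and 4.49 (WT) and 1.45 (KO) in mESCs. Outside it the numbers were 0.820 and 0.159 in MEFs, and 0.0780 and 0.0261 in mESCs.

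Gene groups with different roles carried different amounts of the mark. Of 26 long genes for the cytoskeleton and adhesion of non-neuronal cells, Pol II lay at the promoter of 20 in WT MEFs and of 19 in KO MEFs, while 22 were covered more in KO MEFs and 2 less. H2Bub1 covered 4.12% of these genes in WT and 28.7% in KO MEFs, and 3.44% and 10.2% in WT and KO mESCs. Of 31 genes for transcription and chromatin regulators, 26 were covered more in KO MEFs and 2 less, with 5.04% and 25.8%, and 22 more and 3 less in mESCs, with 2.72% and 6.76%. Over all 953 long genes, 532 were covered more in KO mESCs and 72 less. Among these regulator genes, Arid1b, a subunit of the BAF remodelling complex, had runs of 15.6 kb (WT) and 118 kb (KO) in mESCs, and 118 kb (WT) and 269 kb (KO) in MEFs. Without the weak peaks, its covered length of KO minus WT went from 89.3 to 23.8 kb in mESCs and from 134.9 to 247.7 kb in MEFs.

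The 26 kinase, phosphatase and phosphodiesterase genes stood at 0.831% in WT MEFs against 13.5% in KO MEFs, and 18 were covered more and 2 less. Prkce, which encodes protein kinase C epsilon, had no run in WT MEFs and 247 kb in KO MEFs. The receptor phosphatase gene Ptprg had runs of 5.21 kb and 174 kb in WT and KO mESCs, and in MEFs none and 152 kb. Without the weak peaks KO minus WT went from 243.7 to 95.2 kb in Prkce in MEFs, and in Ptprg from 150.5 to 54.8 kb in mESCs and from 158.3 to 55.6 kb in MEFs. Mast4 was covered over 4.63 kb in WT and 474 kb in KO MEFs.

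Long genes for neuronal adhesion and for channels carried little mark in either cell type. Of 35 neuronal adhesion and guidance genes, 9 had Pol II at the promoter in WT MEFs and 3 in KO MEFs, as 6 lost it (17.95% of such long genes and 8.01% of all such genes did). H2Bub1 covered 0.149%, 0.375%, 0.0828% and 0.859% of these genes in WT mESCs, KO mESCs, WT MEFs and KO MEFs. Most of the last value lay in Slit3, which encodes a secreted guidance ligand and was covered over 0.607 kb in WT and 214 kb in KO MEFs. Without the weak peaks its KO minus WT went from 213 to 95.9 kb. Its relative Slit2 stayed at 3.08 kb and 5.97 kb, and its Pol II body peaks numbered 22 in WT MEFs and 0 in KO MEFs, where KO minus WT was −5 in lists of equal length. Of 26 glutamate receptor and ion channel genes, 5 had Pol II at the promoter in WT MEFs and 4 of them lost it, against the same background, with 0.110%, 0.387%, 0.0809% and 0.495% covered in the same order. All 17 genes listed for common fragile sites were long genes, and 12 had Pol II at the promoter in WT MEFs and 10 in KO MEFs. They held 88.3 kb of H2Bub1 in WT MEFs and 782 kb in KO MEFs, of which 486 kb lay in Lpp and 203 kb in Exoc4, an exocyst subunit. Over all 953 long genes, 519 were covered more in KO MEFs and 20 less.

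**Figure D5:**
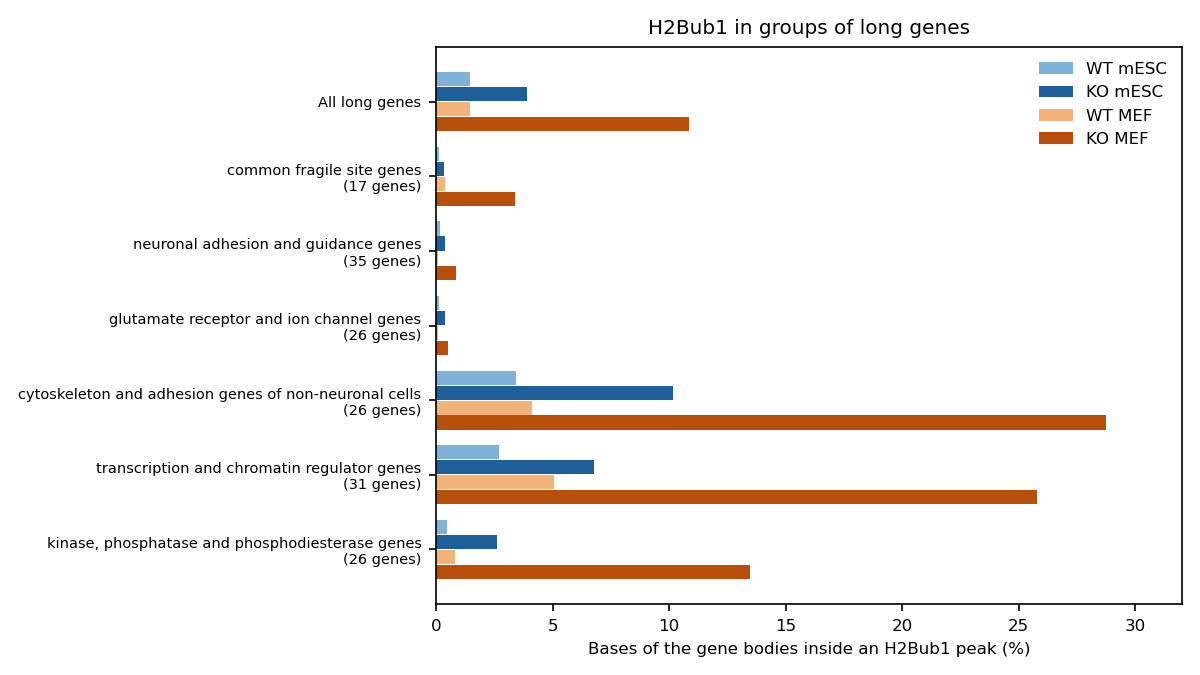
Share of gene body bases inside an H2Bub1 peak (horizontal axis, %) in all 953 long genes and in 6 groups of long genes, 1 bar per library. Cytoskeleton and adhesion genes reach 28.7% in KO MEFs and transcription and chromatin regulators 25.8%, whereas neuronal genes and channel genes stay under 1% in every library.

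Some long genes had a Pol II promoter peak in both genotypes and no H2Bub1 in KO. The strongest in MEFs was Dlg2, which encodes a postsynaptic scaffold, with 22.1-fold in WT and 10.4-fold in KO, then Btbd11 with 18.5-fold and 5.32-fold and Immp2l with 14.1-fold and 9.0-fold. None of them had H2Bub1 in WT MEFs either. In mESCs these were Hecw2, Cacna2d1 and Ctnna3, with 0.831, 0.336 and 0.397 kb of H2Bub1 in WT. Each of the 3 MEF genes had 1 body peak in WT and 0 in KO.

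The mark was higher in WT in few genes. In MEFs the largest excess lay in Stox2, with 22.0 kb in WT and 2.55 kb in KO, then Sorcs2, a sorting receptor, with 3.19 kb and 0 kb, and Prdm16, a zinc-finger regulator, with 2.71 kb and 0 kb. The Pol II promoter peaks of Sorcs2 and Prdm16, 5.91-fold and 11.0-fold in WT MEFs, were not called in KO MEFs. In mESCs the largest excess lay in Rbfox3, which encodes a neuronal splicing factor, with 23.4 kb in WT and 15.2 kb in KO. The muscle gene Ttn followed with 7.47 kb and 1.49 kb, and Ccdc7a with 5.597 kb and 0.987 kb. None of these 3 genes had a Pol II promoter peak in either mESC library. Without peaks of a −log10 q below 3, KO minus WT was 0 kb in Rbfox3 and Ttn and −4.95 kb in Ccdc7a in mESCs, and 0 kb in all 3 MEF genes. Among genes marked in KO only, the largest covered lengths lay in Plxna4 (296 kb), Tmem108 (257 kb) and Hivep3 (203 kb) in MEFs and in Itpr1 (20.3 kb), Atp8a1 (17.7 kb) and Fer (12.8 kb) in mESCs. Without the weak peaks 0.272, 13.7 and 1.82 kb were left in the 3 mESC genes, and 270.5, 168.6 and 159.0 kb in the 3 MEF genes.

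Annotation bears on the longest records. Gm20388, the longest at 4435 kb, spans 73 other protein-coding genes, and its 973 kb of H2Bub1 in WT mESCs and 1255 kb in KO mESCs, 420 kb in WT MEFs and 1122 kb in KO MEFs lie over those as well. The Fgfr2 record of 2961 kb spans 30 others, while the principal transcript of this fibroblast growth factor receptor gene measures 102 kb. Ptprd, at 2271 kb, had no Pol II peak at the start of its record, and held 1.47 kb of H2Bub1 in WT MEFs and 65.8 kb in KO MEFs. Counting each base once where long genes overlap each other gave ratios of KO to WT of 2.75 in mESCs and 7.48 in MEFs.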

How the data were processed

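H2Bub1 and Pol II ChIP-seq peaks were analysed in WT and KO mESCs and MEFs, 8 lists from 1 library each. The remaining 8 labelled samples, inputs and Pol II Ser2P, were not analysed here. The authors mapped reads to mm10 with Bowtie 1.0.0 and called peaks per library with MACS2 2.1.1.20160309 (submitters' processing notes, which also name bcl2fastq 2.17.1.14). The control and threshold of the calls are not given in the sources used here. The deposited peak lists give each peak's fold enrichment (a ratio over local background), its −log10 p and −log10 q and the offset of its summit. A peak list holds only what passed the caller, so a missing peak is no proof of absence, and a deeper or cleaner library yields more and longer peaks. No value column was left unmapped (0 columns).

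Genes were GENCODE M21 records, and sequences came from RefSeq GRCm38.p6. Overlapping peaks were merged, gene bodies were intersected with them, and sums count bases shared by overlapping long genes once per gene. Promoter peaks lay within 1 kb of the record's TSS. Intervals of shares are exact Clopper-Pearson 95%, and those of medians are order-statistic intervals over genes, which are not replicates. Python 3.11.15, numpy 2.4.6, scipy 1.17.1 and matplotlib 3.10.9 were used, and the scripts were tested on simulated peaks. Gene symbols in the text followed a fixed rule: the 3 longest genes, the 5 longest KO and 3 longest WT runs, the 3 largest KO-only and WT-over-KO genes, the 3 strongest promoters without H2Bub1 in KO and the 3 with most WT body peaks per cell type, and 3 per gene group, none on chromosome 18, and 1 gene so named is not reported here. Fndc3b, Runx1, Zmiz1, Bicc1, Sema3d and Mylk were exceptions, picked after their values had been seen. The long genes, groups and rules were chosen with earlier results of these data known. Results were recomputed with equal numbers of peaks in WT and KO, with peaks of −log10 q 3 or more, genes that no other gene overlaps, genes of at least 300 kb, gaps of 1 and 20 kb, at least 10 kb covered and a narrower promoter window. Added after seeing the data were a principal transcript of at least 200 kb, runs from the annotated start with the highest Pol II fold, and 3 classes of the WT Pol II fold.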

Additional observations from a re-analysis of the deposited data

Results flagged for a closer look

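In 4 of the named genes the covered length moved in opposite directions in the 2 cell types, with 1 library on each side, and the difference was not tested. Hivep3 was covered 0.509 kb less in KO than in WT in mESCs (KO minus WT −0.509 kb) and 203 kb more in MEFs (203.049 kb). Prdm16 was covered 53.0 kb more in KO mESCs and 2.71 kb less in KO MEFs (−2.705 kb). Sorcs2 was covered 1.90 kb more in KO mESCs and 3.19 kb less in KO MEFs (−3.188 kb). Stox2 was covered 28.3 kb more in KO mESCs and 19.5 kb less in KO MEFs (−19.455 kb). Over all long genes, 412 were covered more in KO in both cell types, 4 less in both, 34 less in mESCs and more in MEFs, and 8 more in mESCs and less in MEFs. With peaks of a −log10 q below 3 left out, none of the 4 opposite directions remained, as the difference was then 0 kb in mESCs in Hivep3, in MEFs in Prdm16 and Stox2, and in both cell types in Sorcs2.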

How the results depend on the processing

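The ratio of covered length, the share of longer KO runs and the order of KO over WT at 50 to 100 kb kept their direction under every alternative run. No paired analysis was possible because each group has 1 library and the labels give no replicate numbers that pair libraries. With a −log10 q of at least 3, genes with H2Bub1 made up 18.2%, 37.5%, 6.40% and 47.6% in WT mESCs, KO mESCs, WT MEFs and KO MEFs, and 43.5%, 80.9%, 10.3% and 84.5% of genes with a Pol II promoter peak. The covered share from 50 to 100 kb over all long genes was then 0.266% and 1.51% in WT and KO mESCs and 0.0542% in WT MEFs, the ratios of covered length 4.35 in mESCs and 96.2 in MEFs, the median runs 2.08 and 6.54 kb in WT and KO mESCs and 3.998 kb in WT MEFs, and the KO run was longer in 96.8% in mESCs and 100% in MEFs. With equal numbers of peaks, 22.6% of the genes had a Pol II promoter peak in WT mESCs and 55.7% had H2Bub1 in KO mESCs, H2Bub1 lay in 89.8% of genes with Pol II in KO MEFs, the KO run was longer in 97.1% in MEFs, and the ratios of Pol II body peaks were 0.914 in mESCs and 0.952 in MEFs. Genes of at least 300 kb held H2Bub1 in 44.9%, 52.3%, 29.4% and 45.7%, a Pol II promoter peak in 22.9%, 22.0%, 46.4% and 37.0%, and H2Bub1 beside Pol II in 46.6% and 89.0% in WT and KO MEFs. Their covered share from 50 to 100 kb was 0.967% in WT mESCs and 1.18% in WT MEFs, their median run in KO mESCs 7.50 kb, and their loss of Pol II promoter peaks in MEFs 23.5%. A gap of 1 kb gave a median run of 40.6 kb in KO MEFs, and a gap of 20 kb gave 4.99, 34.3, 27.6 and 150 kb (150.059 kb in KO MEFs). At least 10 kb covered left 10.8%, 26.3%, 13.4% and 43.2% of the genes. In single genes, with equal numbers of peaks KO minus WT turned to −1.23 kb (−1.226) in Gli2, −0.627 kb in Dscaml1 and −1.31 kb (−1.311) in Slit3 in mESCs, and to 13 Pol II body peaks in Gm20388 in MEFs, and with the stricter q to 0.692 kb in Cacna2d1 in MEFs. The cause was not tested. Among the main results 125 values kept within the set limits, 47 moved and 0 reversed.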
